A study of Mus musculus with 8 samples.

Results

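The genes described here are 8 mouse genes around the microRNA let-7: Lin28a and Lin28b, Trim71, the chromatin protein genes Hmga1 and Hmga2, and Igf2bp1, Igf2bp2 and Igf2bp3. They were chosen by symbol, with earlier results of these data known, and all 8 were found among the 23389 gene symbols listed for each library and passed the filter on low values that left 13200 genes. RNA was sequenced from 4 groups of 2 libraries. ES are D3-GFP embryonic stem cells of the 129S2/SvPas background. The other 3 groups are BALB/c: mouse embryonic fibroblasts (MEF), 3F + IL6 clones, induced pluripotent stem cells (iPS) that received Oct4, Klf4 and Sox2 and were treated with IL6 at 10 ng/mL, and 4F iPS clones, whose 4 factors the labels do not spell out and which carry no treatment label. Per the labels, the title says that the 3F + IL6 clones came from embryonic fibroblasts, each iPS library is a clone of separate origin, and the paired libraries of ES cells and of MEF are given as biological replicates. Since ES cells alone are not BALB/c, strain cannot be told apart from cell type wherever ES cells are compared, nor can the factor set be told apart from IL6 where the clones are compared with each other.

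LIN28A and LIN28B are RNA-binding proteins of early embryos and stem cells that bind the let-7 precursor and block its maturation, in part by recruiting enzymes that add uridines to it. Mature let-7 in turn represses messenger RNAs that carry matches to its seed, among them those of LIN28 itself, the ubiquitin ligase gene Trim71 (the mouse counterpart of worm lin-41), the HMGA2 gene and the IGF2BP genes, which makes LIN28 and let-7 mutual inhibitors. HMGA proteins bend AT-rich DNA, and IGF2BP proteins bind and protect messenger RNAs of fetal growth such as that of Igf2. In mouse, LIN28 is known as a marker of pluripotent cells and HMGA2 as a protein of the embryo's mesenchyme.

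The members of the let-7 family are shown because the same stretch of each defines a target. RefSeq (GRCm38.p6) held 9 mature mouse sequences of the 5′ arm, let-7a to let-7g, let-7i and miR-98, and all 9 share the seed, bases 2 to 8 from the 5′ end, in capitals in these 4:
mmu-let-7a-5p: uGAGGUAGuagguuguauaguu
mmu-let-7d-5p: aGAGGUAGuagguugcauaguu
mmu-let-7g-5p: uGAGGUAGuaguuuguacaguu
mmu-miR-98-5p: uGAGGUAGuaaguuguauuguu
LIN28 is known to contact a GGAG in the loop of the precursor. Of 12 hairpins in RefSeq, 9 hold GGAG between the mature arms and 3 do not (Mirlet7b, Mirlet7c-2 and Mir98). A hairpin of each kind follows, the GGAG in capitals: Mirlet7g (chr9:106178840-106178927, plus strand) has it and Mirlet7c-2 (chr15:85706603-85706697, plus strand) does not.
Mirlet7g: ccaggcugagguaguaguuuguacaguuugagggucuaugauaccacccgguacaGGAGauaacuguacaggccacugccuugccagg
Mirlet7c-2: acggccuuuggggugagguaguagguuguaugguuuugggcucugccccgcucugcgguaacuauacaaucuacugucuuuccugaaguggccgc

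The 3′ untranslated regions of the 8 genes were searched for the seed's complement on the sense strand, as CTACCTC (a 7-base match) and as CTACCTCA (an 8-base match, which is a 7-base match followed by A), in the longest region annotated per gene in GENCODE M21 on mm10. Of the 8 genes, 7 held at least 1 8-base match, 13 matches in all, beside 3.66% of 11537 tested genes with such a region. Most of the 8 are known as let-7 targets through such matches, as given above. The contrast was therefore set by the choice of genes and is not a result. The share rises with length, so the figure for genes of like length (within 25%) is given for each. Trim71 had 4 in 5512 bases (11.7% of genes of like length hold any), Igf2bp1 3 in 6337 bases (13.6%), and Lin28a 2 in 2775 bases (5.61%). Lin28b (4445 bases, 9.52%), Hmga2 (3014 bases, 6.08%), Igf2bp2 (1784 bases, 3.73%) and Igf2bp3 (2119 bases, 4.62%) had 1 each. Hmga1 had none in 1183 bases, where 2.89% of genes of like length hold any, and a 7-base match instead. By 7-base matches, which include the 8-base ones, Lin28b, Trim71, Hmga2 and Igf2bp1 had 4 each and Lin28a 2. Igf2bp2 and Igf2bp3 had 1 each, and 10.4% of all tested genes hold any. Over all 11537 genes, 3 held 4 or more 8-base matches, namely Mcf2l with 7, Trim6 with 5 and Trim71. Sites of the genes are printed below with the 8-base match in capitals, all on the minus strand of mm10, 30 bases each and inside the 3′ untranslated exon; Trim71 is given in full since its 4 sites lie in 2 pairs.
Trim71 chr9:114512472-114512501: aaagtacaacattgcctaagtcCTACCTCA
Trim71 chr9:114512376-114512405: cctgtgaagtgataatttctatCTACCTCA
Trim71 chr9:114509047-114509076: gattttgtttagtatggattttCTACCTCA
Trim71 chr9:114509021-114509050: ctcaattttggcaaaaagttgtCTACCTCA
Lin28a chr4:134005189-134005218: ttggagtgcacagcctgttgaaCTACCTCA
Lin28b chr10:45381022-45381051: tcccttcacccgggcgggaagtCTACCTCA
Hmga2 chr10:120364224-120364253: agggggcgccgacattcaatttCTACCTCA
Igf2bp1 chr11:95961778-95961807: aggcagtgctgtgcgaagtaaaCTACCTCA
Igf2bp2 chr16:22059473-22059502: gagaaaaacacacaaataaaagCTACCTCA
Igf2bp3 chr6:49086787-49086816: ttaaacgtgcatttttactcaaCTACCTCA
A match is a description of the annotated sequence and does not show that let-7 acts there. let-7 itself was not measured: these libraries hold poly-A messenger RNA, and of 12 symbols of let-7 family genes 10 were listed at 0 in all 8 libraries, while Mirlet7d and Mirlet7e did not exceed 1.46.

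Values are RPKM, read counts scaled by gene length and by the reads of the library, so levels of different genes can be compared per length. A difference is the log2 of RPKM + 1 in the first group minus that in the second, which understates changes of low genes. A gene was called higher or lower where limma, in a fit of all 8 libraries, gave a two-sided p, adjusted over all 13200 genes by the Benjamini-Hochberg method, under 0.05. Each library held an estimated 11800000 to 18000000 reads. Over 13200 genes the median absolute log2 difference within a pair was 0.0562 for ES, 0.0496 for MEF, 0.102 for 4F and 0.182 for 3F + IL6 clones, so the 3F + IL6 pair stood apart, and among the 8 genes its largest gap was 0.98, for Hmga2. All 8 pluripotency markers (Pou5f1, Nanog, Sox2, Zfp42, Esrrb, Tdgf1, Utf1, Dppa5a) summed to 4970 to 6110 RPKM in ES cells and clones and 6.81 to 8.51 in MEF. Dppa5a made up the most of that sum, and 3 markers were lower in all 4 clones than in ES cells: Nanog (131 to 181 RPKM against 245 and 252), Zfp42 (169 to 262 against 453 and 467) and Esrrb (58.2 to 77.7 against 138 and 143). The 12 fibroblast markers summed to 4600 to 4660 in MEF, 11.1 in each ES library, 236 and 372 in 3F + IL6 and 196 and 224 in 4F clones, and all 12 had a mean of at least 1 RPKM in both kinds of clone. Epithelial markers summed to 151 to 154 RPKM in ES cells, 371 to 380 in 3F + IL6, 324 to 340 in 4F and 9.53 to 10.6 in MEF. In the clones most of that was Epcam (161 to 192) and Cdh1 (115 to 131), with Krt5 and Krt14 at 0 to 0.647. Markers of macrophages and blood summed to 13.2 to 14.8, 50.9 to 53.9, 50.3 to 51.5 and 6.71 to 6.83 in the same order. Ptprc, Emr1 and Lyz2 were at 0 in ES cells. In the clones most of that sum was Cd68 (20.8 to 34.4) and Lyz2 (16.2 to 28.7). Ptprc was at 0.0131 to 0.0561 there, and Csf1r at 0.142 to 0.16, below its 0.585 and 0.823 in MEF. Whether these markers stand for cells of other types, and the part of such RNA in the differences between clones and ES cells, were not tested. In these bulk libraries fewer cells of a type and less RNA per cell cannot be told apart.

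Of the 8 genes, 5 were called against MEF in ES cells and in both kinds of clone: 4 were higher and Hmga2 was lower. In each of these comparisons 81.7% to 83.6% of all genes tested were called, so the count by itself is not a result about these genes. ES cells and both kinds of clone had Lin28a, Lin28b, Trim71 and Igf2bp1 above the MEF level, from 3.24-fold for Igf2bp1 in 4F clones to a 687-fold read ratio for Lin28a in 3F + IL6, and Hmga2 at 1.82% to 4.48% of it. Hmga1 was the most abundant of the 8 in every library and varied little. Against MEF, Igf2bp2 was called in ES cells, where it was lower, and not in the clones, and Igf2bp3 was called in ES cells, where it was higher, and not in the clones. Between clones and ES cells the clearest difference was in Lin28a, which was 3.47-fold higher in 3F + IL6 and 3.16-fold higher in 4F clones.

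**Figure D1:**
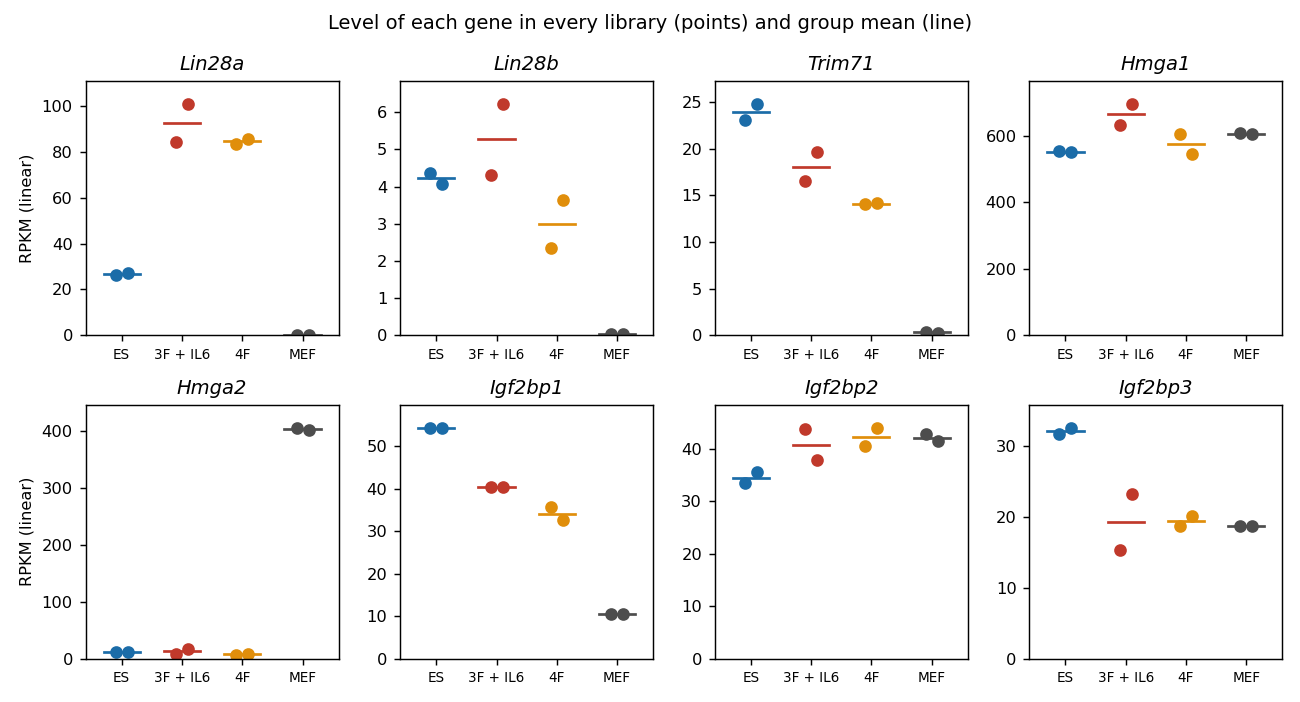
Level of each of the 8 genes in RPKM on a linear axis from 0, a panel per gene, with a point per library and a line at the mean of each group of 2. Lin28a, Lin28b and Trim71 lie near 0 in MEF, Hmga2 is high in MEF alone, and Hmga1 is between 545 and 696 RPKM in all 8 libraries.

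Lin28a (mm10, chr4:134003330-134018841, minus strand) was at 26.5 and 27.1 RPKM in ES cells, 84.6 and 101 in 3F + IL6 clones, 83.5 and 85.9 in 4F clones and 0.143 and 0.125 in MEF. All 4 clones were above both ES libraries and every pluripotent library was far above MEF, while the kinds of clone overlapped. Against ES cells the difference was 1.75 in 3F + IL6 (SE 0.09; limma adjusted p = 1.1e-05) and 1.63 in 4F clones (SE 0.09; limma adjusted p = 1.5e-05). In 3F + IL6 against 4F it was 0.13, with a 95% interval of -0.08 to 0.33 (limma adjusted p = 0.41). Against MEF it was 6.37 in 3F + IL6 (limma adjusted p = 1.3e-08), 6.24 in 4F and 4.61 in ES cells. The MEF values stand for about 8.9 and 7.9 reads, so the ratio to MEF was 687 in 3F + IL6 (95% interval 429 to 1180) and 198 in ES cells (123 to 340); these intervals cover counting error only.

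Lin28b (chr10:45376620-45486395, minus strand), the paralog that is known to act mainly in the nucleus, was lower per length than Lin28a in every library. It was at 4.37 and 4.07 RPKM in ES cells, 4.32 and 6.22 in 3F + IL6, 2.34 and 3.64 in 4F and 0.0306 and 0.0199 in MEF. The 3F + IL6 and ES libraries overlapped, and both 4F clones were below them. Only the differences from MEF were called: 2.60 in 3F + IL6 (SE 0.19; limma adjusted p = 1.1e-05), 2.35 in ES cells and 1.94 in 4F clones. About 2.9 and 1.9 reads underlie the MEF values, which gives ratios to MEF of 205 (95% counting interval 87.5 to 634), 163 (69.7 to 505) and 116 (49.5 to 360). In 4F against ES the difference was -0.41 (limma adjusted p = 0.099). It was called with quantile normalization (-0.50), without 4F clone 2 (-0.65) and without either 3F + IL6 clone (-0.41 in both). In 3F + IL6 against 4F it was 0.66, with an interval of 0.20 to 1.11 before adjustment (limma adjusted p = 0.12).

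The balance of the LIN28 paralogs differed between clones and ES cells. Lin28a exceeded Lin28b 6.06- and 6.64-fold in ES cells, 19.6- and 16.2-fold in 3F + IL6 and 35.7- and 23.6-fold in 4F clones, with no overlap between clones and ES cells. These ratios were not tested. The sum of the paralogs was 30.9 and 31.1 RPKM in ES cells, 88.9 and 107 in 3F + IL6, 85.8 and 89.5 in 4F and 0.174 and 0.144 in MEF, so the higher total in clones was carried by Lin28a.

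Trim71 (chr9:114507133-114564369, minus strand), which encodes a ubiquitin ligase and RNA-binding repressor of early embryos, was at 23.1 and 24.8 RPKM in ES cells, 16.5 and 19.7 in 3F + IL6, 14.1 and 14.2 in 4F and 0.318 and 0.249 in MEF. The groups did not overlap and fell in the order ES, 3F + IL6, 4F, MEF. Relative to ES cells Trim71 fell by 0.39 in 3F + IL6 (SE 0.10; limma adjusted p = 0.011), a call lost without ES 2 (-0.34, limma adjusted p = 0.082), and by 0.72 in 4F clones (limma adjusted p = 0.00067). Over MEF it rose by 3.89 in 3F + IL6, 3.56 in 4F and 4.28 in ES cells (limma adjusted p = 5.5e-08 for ES). The MEF level rests on about 95 reads over both libraries, and ES cells were 84.3 times as high (95% counting interval 68.8 to 104). The difference between 3F + IL6 and 4F was 0.33 (interval 0.10 to 0.57; limma adjusted p = 0.12).

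The HMGA genes separated. Hmga2 (chr10:120361275-120476469, minus strand) was at 11.4 and 11.9 RPKM in ES cells, 8.64 and 18.0 in 3F + IL6, 7.32 and 8.62 in 4F and 405 and 401 in MEF. MEF stood far above all others, and 3F + IL6 overlapped ES cells because its 2 clones lay on either side of them. Relative to MEF Hmga2 fell by 4.90 in 3F + IL6 (SE 0.27; limma adjusted p = 2.7e-06), 5.50 in 4F (limma adjusted p = 1.5e-06) and 5.0 in ES cells (limma adjusted p = 2.3e-06), that is 30.2-, 50.5- and 34.7-fold. Its direction against MEF was opposite to that of Lin28a, Lin28b, Trim71 and Igf2bp1 in all 3 comparisons; it too holds an 8-base let-7 match, as does Igf2bp2, which was also lower in ES cells than in MEF.

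Clones and ES cells did not differ past the threshold in Hmga2. The difference was 0.10 in 3F + IL6 against ES (interval -0.55 to 0.75; limma adjusted p = 0.76), but it depended on the clone: with clone 1 left out it was 0.59 and called, and with clone 2 left out -0.39 and called. With either of these clones gone, the gap between them no longer enters the error that all groups share, and calls gained in this way are no support. In 4F against ES it was -0.50 (limma adjusted p = 0.15). The fit of only those 4 libraries called it (limma adjusted p = 0.0036), as did the fits without either 3F + IL6 clone (-0.50 in both). In 3F + IL6 against 4F it was 0.60 (interval -0.05 to 1.25; limma adjusted p = 0.23), with values of 1.09 without 3F + IL6 clone 1 and 0.11 without clone 2.

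Hmga2 was below both ES libraries in 3 of the 4 clones, at 74.4% of the ES mean in 3F + IL6 clone 1 and 63.0% and 74.2% in the 4F clones, and at 155% in 3F + IL6 clone 2, while 11 of the 12 fibroblast markers were above ES cells in all 4. As a percent of MEF, Hmga2 was at 2.82 and 2.94 in ES cells, 2.15 and 4.48 in 3F + IL6 and 1.82 and 2.14 in 4F clones. The excess over ES cells was then expressed as a percent of the MEF excess. The 12 fibroblast markers had a median excess of 6.75% and 9.56% in 3F + IL6 clones 1 and 2 and 7.59% and 6.43% in 4F clones 1 and 2, and that of Hmga2 was -0.759%, 1.64%, -1.10% and -0.766%. The markers were uneven: Dcn and Lum, small proteoglycan genes, reached 129% to 268% of their MEF level in the 3F + IL6 clones, and Twist1, a mesenchymal transcription factor gene, was below ES cells in all 4 clones. The clone with the higher Hmga2, 3F + IL6 clone 2, was also the clone with the highest summed fibroblast markers; the part of that RNA in its Hmga2 value was not tested.

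**Figure D2:**
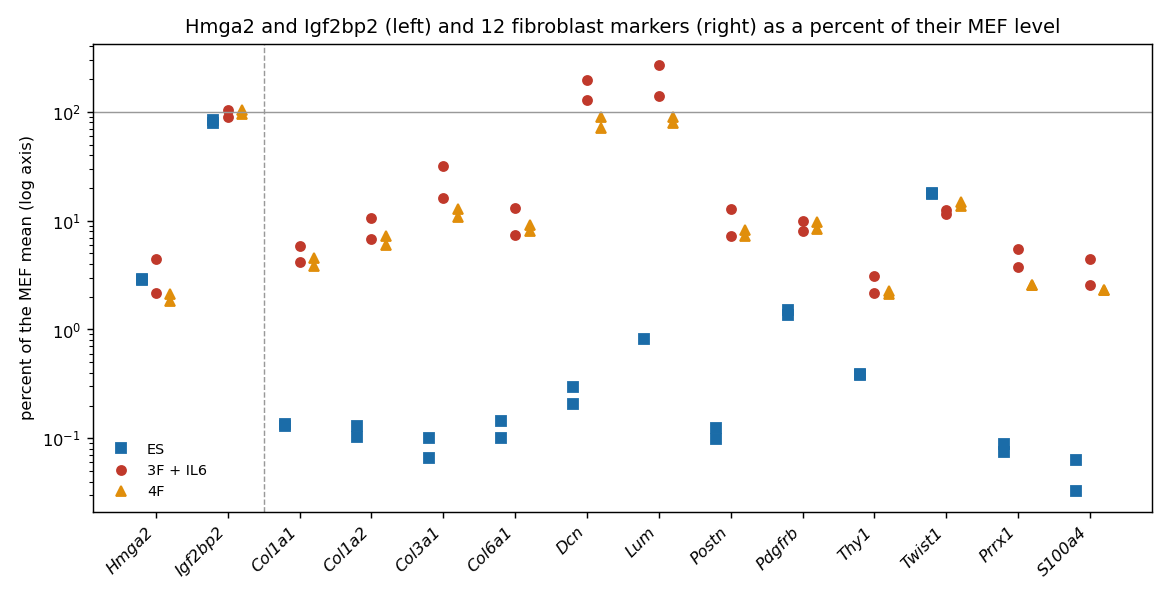
Hmga2, Igf2bp2 and the 12 fibroblast markers in each ES and iPS library as a percent of the MEF mean, on a log axis, with squares for ES, circles for 3F + IL6 and triangles for 4F clones; a value of 0 is not drawn. Hmga2 lies at 1.82% to 4.48% in all 6 libraries, Igf2bp2 near 100%, and most markers are higher in the clones than in ES cells.

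Hmga1 (chr17:27556497-27563674, plus strand) was at 554 and 553 RPKM in ES cells, 634 and 696 in 3F + IL6, 605 and 545 in 4F and 609 and 605 in MEF, a range of 1.20-fold between group means. It was 1.51-fold above Hmga2 in both MEF libraries and 38.6- to 82.6-fold above it in the other 6. Hmga1 was called in 3F + IL6 against ES cells alone of the 6 comparisons, at 0.26 (SE 0.06; limma adjusted p = 0.0094). That call was lost with quantile normalization (0.10, limma adjusted p = 0.21) and without either ES library, where limma gave adjusted p = 0.05 and 0.051. In ES against MEF it was -0.13 (limma adjusted p = 0.087), and with median centring -0.22 and called. The fit of only those 4 libraries and the fits without either 3F + IL6 clone also called it, at -0.13.

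The IGF2BP paralogs each took a course of their own. Igf2bp1 (chr11:95957163-96005940, minus strand), the founding member of the family, was at 54.3 and 54.2 RPKM in ES cells, 40.4 and 40.3 in 3F + IL6, 35.7 and 32.6 in 4F and 10.5 in each MEF library. No groups overlapped, and the order was that of Trim71. Relative to ES cells it fell by 0.42 in 3F + IL6 (SE 0.06; limma adjusted p = 0.00088) and by 0.66 in 4F clones (limma adjusted p = 0.00011). It rose over MEF by 1.84, 1.61 and 2.26 in 3F + IL6, 4F and ES, the last with limma adjusted p = 9.6e-08. Between 3F + IL6 and 4F clones it was 0.24 (interval 0.09 to 0.38; limma adjusted p = 0.093).

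Igf2bp3 (chr6:49085223-49214957, minus strand), an oncofetal paralog, was at 31.7 and 32.6 RPKM in ES cells, 15.4 and 23.2 in 3F + IL6, 18.7 and 20.1 in 4F and 18.8 and 18.7 in MEF. ES cells stood above the other 6 libraries, whose groups overlapped one another. It fell relative to ES cells by 0.73 in 3F + IL6 (SE 0.16; limma adjusted p = 0.0062) and by 0.70 in 4F clones (limma adjusted p = 0.0069), and was 0.75 higher in ES cells than in MEF (limma adjusted p = 0.0037). ES cells alone are not BALB/c, so strain cannot be told apart from cell type in these differences. Clones and MEF differed by 0.01 in 3F + IL6 (interval -0.37 to 0.39) and 0.04 in 4F (interval -0.34 to 0.43). Those values turned negative with median centring (-0.10 and -0.03), and the first was -0.27 without 3F + IL6 clone 2 and 0.29 without clone 1.

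Igf2bp2 (chr16:22059009-22163299, minus strand), the paralog that is known to persist in adult tissues, was at 33.5 and 35.5 RPKM in ES cells, 43.7 and 37.8 in 3F + IL6, 40.6 and 44.0 in 4F and 42.8 and 41.5 in MEF. ES cells were below the other 6 libraries, the reverse of Igf2bp3. Limma called it higher in 3F + IL6 than in ES cells at 0.23 (adjusted p = 0.043) and in 4F clones at 0.29 (adjusted p = 0.018), and lower in ES cells than in MEF at -0.28 (adjusted p = 0.015). These are weak calls. That in 3F + IL6 was lost with no filter, median centring, limma without trend, the replicate block, the fit of only those 4 libraries, and without any library except 3F + IL6 clone 2 (limma adjusted p = 0.053 to 0.20). The 4F call was lost without ES 1 or 4F clone 2, and the MEF call without ES 1 or MEF 1.

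The IGF2BP sum, per length, was 119.5 and 122.3 RPKM in ES cells, 99.57 and 101.3 in 3F + IL6, 94.99 and 96.71 in 4F and 72.14 and 70.7 in MEF, with no overlap between groups. Its make-up differed as well. Igf2bp1 made up 45.5% and 44.3% of it in ES cells, 40.6% and 39.8% in 3F + IL6, 37.5% and 33.7% in 4F and 14.6% and 14.9% in MEF, while Igf2bp2 made up 28.0% and 29.0%, 43.9% and 37.3%, 42.7% and 45.5%, and 59.3% and 58.6%. Igf2bp1 had the largest share in ES cells and Igf2bp2 the largest in MEF, while Igf2bp2 was ahead in 3 of the 4 clones and Igf2bp1 in 3F + IL6 clone 2. These shares were not tested.

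**Figure D3:**
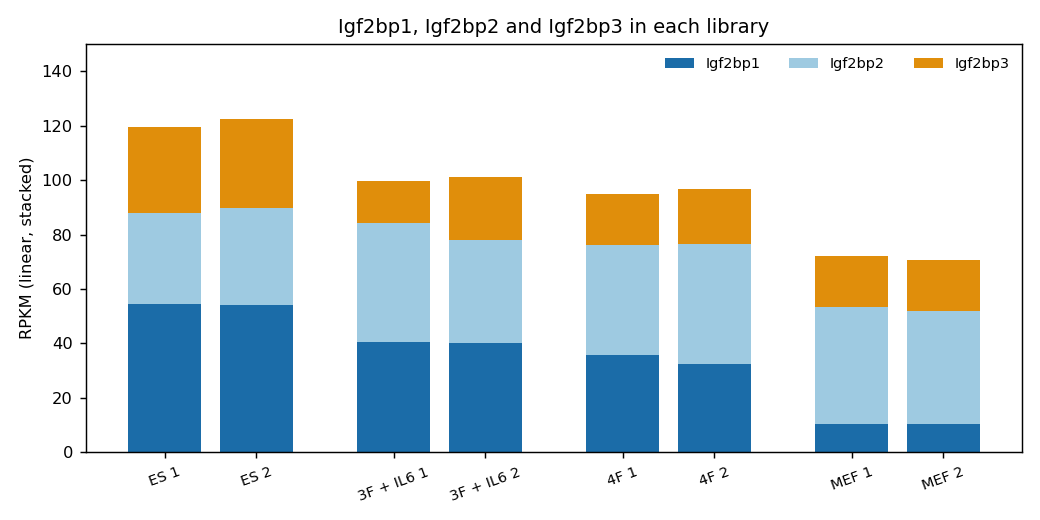
Stacked bars of Igf2bp1, Igf2bp2 and Igf2bp3 in RPKM, on a linear axis from 0, a bar per library. The total falls from 119.5 and 122.3 in ES cells to 72.14 and 70.7 in MEF, mostly through Igf2bp1.

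Comparison of 3F + IL6 with 4F clones asks whether clones made with a smaller set of factors and IL6 differ from those made with 4. Limma called 0 of the 8 genes, where it called 1.34% of all genes tested (0.773% higher and 0.568% lower), and 4 of the 8 had an unadjusted p under 0.05 against 3198 of 13200 genes. The 2 libraries of each kind did not overlap for 5 of the 8, beside 46.7% of all genes. The group mean was higher in 3F + IL6 for 6 of the 8, all but Igf2bp2 and Igf2bp3, and the median difference was 0.22 against 0.03 over all genes. The count was 0 in every setting tried that kept 2 libraries in each group. It rose with either 3F + IL6 clone left out, as did the calls over all genes, and as for Hmga2 above such calls are no support. Untailed RNAs also separated the clones: Rn45s, Rpph1 and Rmrp, chosen after their values were seen, summed to 64.9 and 60.8 RPKM in 3F + IL6 and 610 and 596 in 4F clones. They also differed within ES cells (89.8 and 704) and MEF (46.5 and 267), where the 8 genes differed between libraries by at most 0.10 and 0.08 on the log2 scale. Among the clones this split coincides with the kind of clone and cannot be told apart from it. Its part in the values of the 8 genes was not tested.

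The comparisons of each kind of clone with ES cells share the ES libraries, so their values stand side by side and do not support each other. In 3F + IL6 limma called 3 of the 8 genes higher (Lin28a, Hmga1, Igf2bp2; background 33.1%) and 3 lower (Trim71, Igf2bp1, Igf2bp3; background 30.3%), so 6 of 8 beside 63.4% of all genes. In 4F clones it called 2 higher (Lin28a, Igf2bp2; background 33.7%) and 3 lower (the same 3; background 33.5%), so 5 of 8 beside 67.2%. Groups did not overlap for 6 of the 8 in 3F + IL6, beside 81.8% of all genes, and for 7 of the 8 in 4F, beside 87.3%. A count near the background is not a result about these genes. The 3F + IL6 count was 3 without ES 2.

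Comparisons with MEF ask what sets the pluripotent cells apart from the cell type the 3F + IL6 clones came from. Limma called 4 of the 8 higher and 1 lower in 3F + IL6 (backgrounds 49.4% and 32.6%, 82.1% in all), 4 higher and 1 lower in 4F clones (49.2% and 34.4%, 83.6% in all), and 5 higher and 2 lower in ES cells (49.7% and 32.0%, 81.7% in all). The libraries did not overlap for 6, 6 and 8 of the 8 genes, beside 90.4%, 93.7% and 94.4% of all genes. The counts of called genes lie below the background in both kinds of clone, and in ES cells 7 of the 8 were called, near it. The median over the 8 genes was 0.99, 0.83 and 1.5, beside 0.26, 0.25 and 0.27 over all genes.

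**Figure D4:**
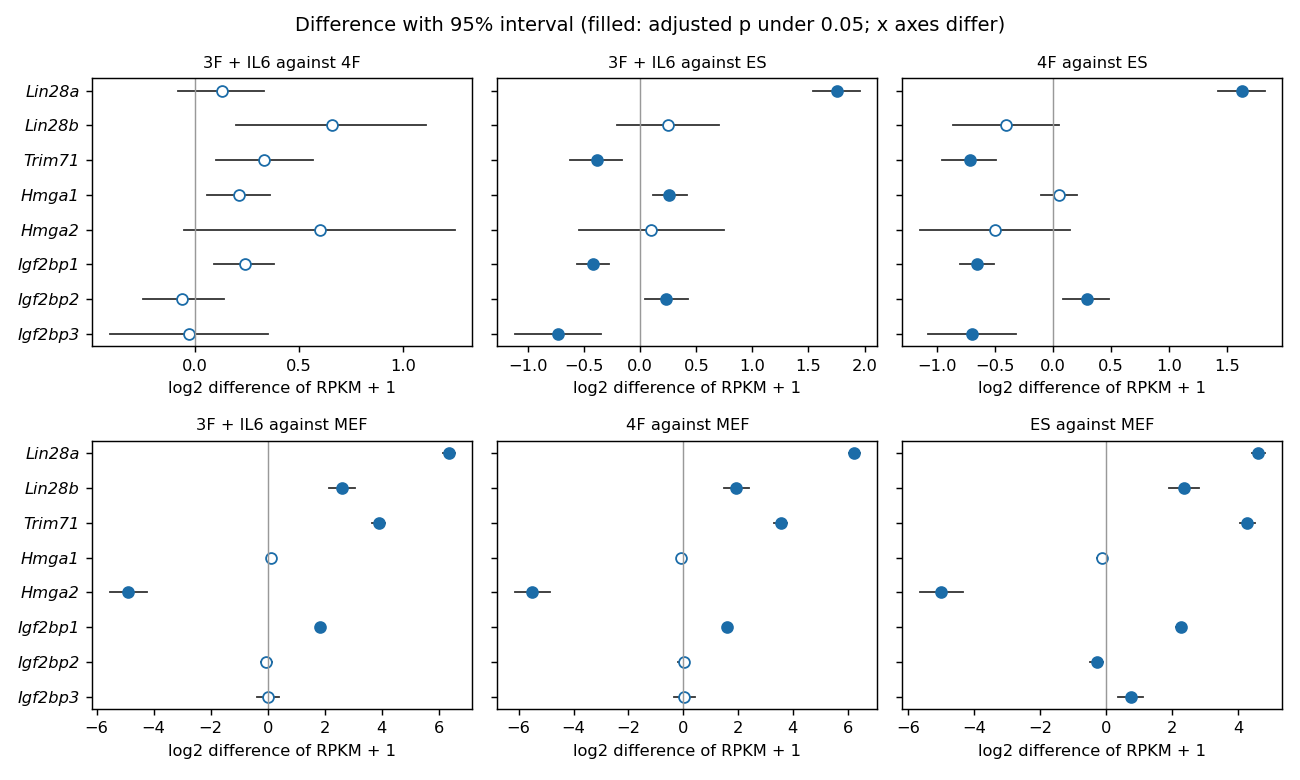
Log2 difference of RPKM + 1 for each gene in the 6 comparisons, first group minus second, with its 95% interval; filled points passed the adjusted threshold and the horizontal axes differ between panels. No point is filled for 3F + IL6 against 4F, Lin28a has the largest positive value in all 5 other comparisons, and Hmga2 has the largest negative value in those with MEF.

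The clones can also be placed between MEF (0) and ES cells (1) on the log2 scale, for genes that differ by at least 1 between these. Lin28a overshot ES cells in all 4 clones, at 1.35 to 1.41. Igf2bp1 fell short in all 4, at 0.82 and 0.81 in 3F + IL6 and 0.74 and 0.68 in 4F, as did Trim71, at 0.88 and 0.94 and at 0.83 in both 4F clones. Hmga2 was at 1.08 and 0.88 in 3F + IL6 and 1.12 and 1.08 in 4F, and Lin28b at 1.01 and 1.20 and at 0.72 and 0.93, so these 2 genes lay on both sides of ES cells.

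Across the 8 libraries Trim71 and Igf2bp1 had the highest Pearson correlation of log2 values among the 8 genes (r = 0.99). Lin28a correlated with Hmga2 at -0.96, Igf2bp2 with Igf2bp3 at -0.92, and Hmga1 with the others at between -0.46 and 0.22. These are descriptions over 4 groups of 2 and are set largely by the group means. Among 8156 other genes with a mean of at least 5 RPKM, the most like pattern was that of Aqr for Lin28a (r = 0.9993), Cep76 for Lin28b (0.9995), N4bp3 for Trim71 (0.9994), Hmg20b for Hmga1 (0.9357), the N-cadherin gene Cdh2 for Hmga2 (0.9994), Ubqln4 for Igf2bp1 (0.9994), Pfkfb3 for Igf2bp2 (0.9612) and Mettl1 for Igf2bp3 (0.9862). Such values are common for the genes set by the contrast with MEF, with 1376 genes over 0.95 for Lin28a and 746 for Hmga2, and rare for the rest, with 70 for Igf2bp3, 2 for Igf2bp2 and 0 for Hmga1.

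Genes with several let-7 matches were described next, as a list fixed by sequence. In ES cells against MEF the median difference was 0.28 over 11115 genes with no 8-base match, 0.15 over 399 genes with 1 and 1.26 over 23 genes with 2 or more. Without the 3 members among those 23 it was 0.94. Of the 23, 17 were called higher in ES cells and 3 lower, and without the members 14 of 20 and 3, where 50.3% and 32.8% of the genes with no match were. Besides Lin28a, Trim71 and Igf2bp1 the higher genes included the orphan receptor gene Nr6a1 (3.46), Fignl2 (3.00), Igdcc3 (3.03) and Trim6, chosen after its value was seen, at 5.88. The 3 called lower were Stx17 (-1.3), Acer3 (-0.95) and Mrs2 (-0.7). Mcf2l, which holds the most matches (7), was at -0.15 and not called. In 3F + IL6 against MEF the medians were 0.28, 0.12 and 1.16, and in 4F clones 0.25, 0.04 and 1.22. Against ES cells they were 0.03, -0.06 and -0.14 in 3F + IL6 and 0.01, -0.06 and -0.11 in 4F clones. Genes with more matches also had longer untranslated regions, with medians of 1100, 2422 and 4453 bases, and the part of length was not tested. Genes with 2 or more 7-base matches, 146 in all, had a median of 0.34 in ES cells against MEF, close to the 0.27 of genes with none.

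**Figure D5:**
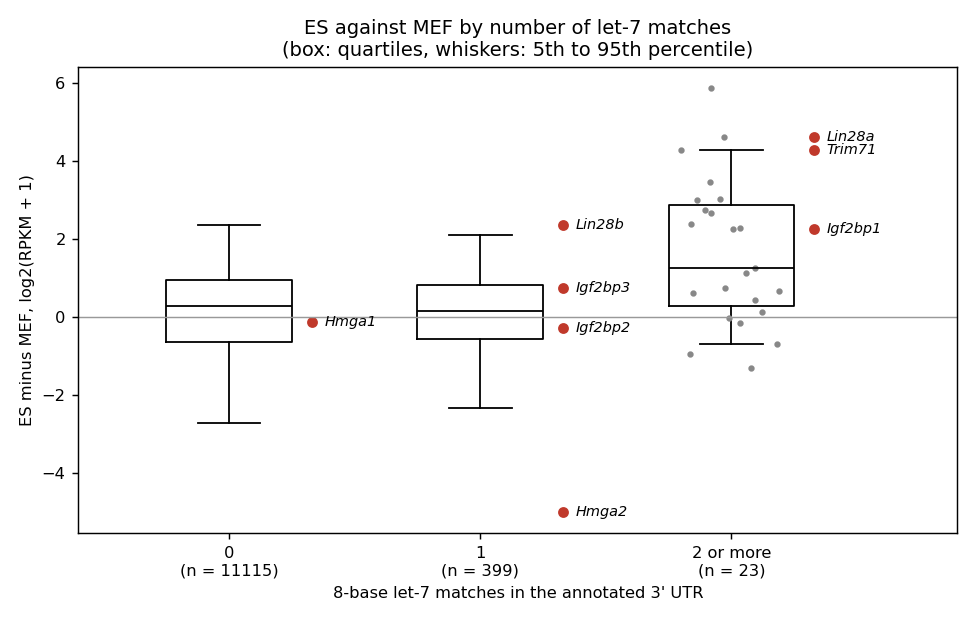
ES against MEF log2 difference for genes grouped by their number of 8-base let-7 matches, with boxes at the quartiles and whiskers from the 5th to the 95th percentile; grey points are the 23 genes with 2 or more and red points are the 8 genes named. The median is 0.28, 0.15 and 1.26 from left to right, and Hmga2, with 1 8-base match, lies at -5.0.

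Of 37 other genes reported as let-7 targets, limma called 16 higher and 16 lower in ES cells than in MEF (median -0.10, beside 0.27 over all genes), where 49.7% and 32.0% of all genes were. The rising genes included Mycn, a MYC family gene, at 29.6 RPKM in ES cells and 1.06 in MEF (3.90; limma adjusted p = 3.6e-06). Those that fell included Thbs1 (-9.32) and Col1a2 (-8.34), which encode matrix proteins of fibroblasts, and the cyclin gene Ccnd2 (-5.32). Limma called 13 of the 37 higher and 10 lower in 3F + IL6 against ES cells, beside 33.1% and 30.3% of all genes, and 16 and 11 in 4F, beside 33.7% and 33.5%. With a mean of at least 5 RPKM required, which leaves fewer genes, 15 were called in 3F + IL6. Col1a2 (4.82 and 4.45) and Thbs1 (3.6 and 3.33) led the higher genes in both, beside the fibroblast marker RNA given above, to which Col1a2 itself belongs. Between the kinds of clone 0 of the 37 were called.

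Of 15 genes of the enzymes that make or turn over let-7 tested, limma called 11 higher and 2 lower in ES cells than in MEF (median 0.57, beside 0.27), where 49.7% and 32.0% of all genes were. Drosha, which cuts the primary transcript, was at 66.2 and 66.3 RPKM in ES cells, 48.1 and 55.6 in 3F + IL6, 41.8 and 44.1 in 4F and 19.2 and 20.1 in MEF, with no overlap. Relative to ES cells, 9 of the 15 fell in each kind of clone, beside 30.3% of all genes in 3F + IL6 and 33.5% in 4F, while 2 rose in 3F + IL6 and 1 in 4F; without ES 1 the 11 called in 3F + IL6 were 7. Dgcr8, the RNA-binding partner of Drosha, fell most, at 24.0 and 24.5 RPKM in ES cells against 6.91 and 10.7 in 3F + IL6 and 6.65 and 7.75 in 4F, below the 16.3 and 15.7 of MEF. Its differences from ES cells were -1.39 (limma adjusted p = 0.00045) and -1.63 (limma adjusted p = 0.0002). Ddx5 and Ddx17, helicases of the same complex, fell by 0.94 and 1.09 in 3F + IL6 and by 1.19 and 1.18 in 4F clones, and Prkra, a partner of Dicer, rose by 0.86 and 0.98.

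Of 16 partners and regulators of let-7 processing tested, 12 were called higher and 2 lower in ES cells than in MEF (median 0.65, beside 0.27), where 49.7% and 32.0% of all genes were. In each kind of clone 8 were called higher and 3 lower than in MEF, a share of higher calls near the 49.4% and 49.2% of all genes, with medians of 0.28 and 0.21 beside 0.26 and 0.25. Zcchc11, the terminal uridylyltransferase that LIN28 recruits, was at 13.1 and 12.5 RPKM in ES cells, 13.6 and 12.2 in 3F + IL6, 13.6 and 14.1 in 4F and 3.95 and 4.05 in MEF (ES against MEF 1.46; limma adjusted p = 2.1e-06). Dis3l2, the exonuclease that degrades the uridylated precursor, was 2.45-fold higher in ES cells than in MEF (1.05; limma adjusted p = 0.00019). Msi1, a neural RNA-binding protein gene, was 8.42-fold higher (2.57; limma adjusted p = 2.3e-06). Against ES cells 3 of the 16 rose and 6 fell in 3F + IL6, and 4 and 6 in 4F clones, beside 33.1% and 30.3%, and 33.7% and 33.5%, of all genes. Khsrp, whose protein promotes let-7 maturation, rose by 0.87 and 0.72, and Bcdin3d, an RNA methyltransferase gene, fell by 1.5 and 1.68.

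Of 16 genes of the insulin-like growth factor axis and IGF2BP cargo tested, 14 were called lower in ES cells than in MEF and 2 higher (median -1.68, beside 0.27), where 32.0% and 49.7% of all genes were. Against MEF the clones had 4 higher and 11 lower in 3F + IL6 and 4 higher and 10 lower in 4F, beside 32.6% and 34.4% of all genes called lower. Igf2, a growth factor gene whose messenger IGF2BP proteins bind, was at 6.27 and 5.84 RPKM in ES cells, 9.86 and 11.1 in 3F + IL6, 8.25 and 6.88 in 4F and 147 and 148 in MEF (ES against MEF -4.40; limma adjusted p = 4.5e-08). H19, its imprinted neighbour, was at 21.0 and 22 RPKM in ES cells, and at 196 and 195 in fibroblasts (-3.13). Igfbp2, which encodes an IGF-binding protein, ran the other way and was highest in the clones, at 573 and 366 RPKM in 3F + IL6 and 554 and 450 in 4F against 110 and 113 in ES cells and, in MEF, 17.1 and 18.0. Against ES cells 9 of the 16 rose and 0 fell in 3F + IL6, with a median of 0.60, where 33.1% of all genes rose and 30.3% fell; the 7 others were not called. In 4F clones 10 rose and 2 fell, beside 33.7% and 33.5% of all genes. Without 3F + IL6 clone 1 the 9 became 14, and without ES 2 or 4F clone 1 the 12 called in 4F became 7.

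Of 8 other high mobility group genes tested, 5 were called higher and 2 lower in ES cells than in MEF, near the 49.7% and 32.0% of all genes. Hmgb2, a DNA-bending protein gene of dividing cells, was at 339 and 336 RPKM in ES cells, against 36.7 and 38.3 in MEF (3.14; limma adjusted p = 1.2e-08). Hmgn3, of a nucleosome-binding family, was at 2.51 and 2.41 against 23.2 and 24.0 (-2.83), the same side as Hmga2. In each kind of clone 7 were called higher and 1 lower than in MEF, where 49.4% and 49.2% of all genes were called higher. Relative to ES cells 2 rose and 2 fell in 3F + IL6 and 2 rose and 4 fell in 4F, near the shares of all genes in 3F + IL6 (33.1% and 30.3%) and, in 4F, beside 33.7% and 33.5%, with Hmgn5 at 1.88 and 1.55.

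Relatives of LIN28 by the cold shock domain and of TRIM71 by the TRIM-NHL fold numbered 9. Relative to ES cells 8 rose and 1 fell in 3F + IL6 (median 0.74), where 33.1% of all genes rose and 30.3% fell, and 7 rose and 1 fell in 4F (median 0.50), where 33.7% rose and 33.5% fell. In ES cells against MEF 3 rose and 5 fell, beside 49.7% and 32.0% of all genes. Ybx2, a cold shock gene known from germ cells, followed Lin28a in order, at 2.16 and 2.70 RPKM in ES cells, 6.71 and 7.43 in 3F + IL6, 6.20 and 6.85 in 4F and 0.036 and 0 in MEF. It rose over ES cells by 1.24 (limma adjusted p = 0.00011) and 1.14 (limma adjusted p = 0.00015). Trim3, a TRIM-NHL ligase gene, was opposite to Trim71 against MEF, at -2.08 in ES cells (limma adjusted p = 1.7e-06).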

How the data were processed

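Poly-A RNA from 500 ng of total RNA became TruSeq libraries read to 50 bases, with mm10 as the build, per the labels' protocols and the submitters' processing notes. For the aligner, counting tool, gene models and the treatment of reads that match several places: not given in the sources used here. The deposited tables hold a value per gene symbol whose unit no header names. The values deposited by the authors were read as RPKM, since low values of genes with 1 transcript fall near whole multiples of a constant step once scaled by length; only 52.0% to 56.5% were whole within 0.1 read, so depth was estimated and no count test was run. Numbers of reads given for MEF are estimates from that step. Of the symbols, 3911 were at 0 in all libraries.

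From these values, genes of at least 1 RPKM in at least 2 libraries were kept and log2(RPKM + 1) was fitted with limma 3.58.1 in R 4.3.3, with a mean per group, empirical Bayes variance with a trend, without a replicate block, over 6 comparisons. The median standard error was 0.102 with 6.94 degrees of freedom. The fit was tested on simulated data that gave all groups the same spread per gene. The pairs here differed in spread, so that test does not cover this. Alternatives were a pseudocount of 0.1, no filter, a mean of at least 5, median centring, quantile normalization, no trend, the 4 libraries compared, a replicate block and each library left out.

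The genes and the lists were chosen with earlier results of these data known. From each list and comparison, genes were named from the 5 largest called differences, besides any marker, any let-7 row and the most like pattern for each member. Fignl2, Igdcc3, Trim6, Mcf2l, Stx17, Acer3, Mrs2, Rn45s, Rpph1 and Rmrp were added after their values were seen. Sequences are from RefSeq (GRCm38.p6) and from GENCODE M21 transcripts (mm10), with 1-based coordinates. P-values rest on a spread per gene that is pooled over the pairs of all 4 groups and moderated by the trend. The pairs differed in spread, as given above, so a p-value does not measure the spread of the groups compared alone. Some genes of the lists are not reported here.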

Additional observations from a re-analysis of the deposited data

How the results depend on the processing

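The 48 differences of the 8 genes were recomputed under 16 alternatives, 762 values in all, since Lin28b does not reach the mean of 5 RPKM that the stricter filter asks for. Of these, 702 kept direction and side of the threshold, while 20 lost and 21 gained a call with their sign kept. The other 19 changed sign and were counted as such whether called or not, and some of them also became calls. Calls of Lin28a, Igf2bp1 and Igf2bp3 against ES cells and of Lin28a, Lin28b, Trim71, Hmga2 and Igf2bp1 against MEF held in all of them. The 177 genes called in 3F + IL6 against 4F became 56 with a pseudocount of 0.1, 315 with quantile normalization, 36 with the replicate block, 17 in the fit of the 4 libraries compared, and 1 to 4782 with a library left out, where the members called ran from 0 to 7. In 3F + IL6 against ES cells they ran from 3 to 7 with a library left out. Scaling turned Hmga1 in 4F against ES cells to -0.12 (quantile), Igf2bp3 against MEF to -0.10 in 3F + IL6 (centring and quantile) and -0.03 and -0.05 in 4F, and Igf2bp2 in 4F against MEF to -0.07 and -0.14; the cause was not tested. Median centring and quantile normalization moved the median of all genes by -0.11 and -0.15 in 3F + IL6 against MEF.

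With a library left out, 3F + IL6 against 4F ran from -0.00 to 0.25 for Lin28a, -0.16 to 0.05 for Igf2bp2 and -0.31 to 0.25 for Igf2bp3; 3F + IL6 against ES from -0.39 to 0.59 for Hmga2; 4F against ES from -0.02 to 0.13 for Hmga1; 3F + IL6 against MEF from -0.15 to 0.05 for Igf2bp2 and -0.27 to 0.29 for Igf2bp3; and 4F against MEF from -0.05 to 0.06 for Igf2bp2 and -0.00 to 0.09 for Igf2bp3. Where 1 library of a group remained, it was assumed to vary like the other groups.

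Of the gene lists, 3F + IL6 against 4F had 0 calls, but 1, 1 and 2 among other let-7 targets and 2, 2 and 3 in the IGF axis under the stricter filter, median centring and quantile normalization. With a library left out it had 0 to 7 among let-7 enzymes, 0 to 6 among partners, 0 to 19 among other targets, 0 to 10 in the IGF axis, 0 to 4 among HMG genes and 0 to 2 among cold shock and TRIM-NHL relatives. In 3F + IL6 against ES the stricter filter left 15 of 23 other targets, and with a library left out let-7 enzymes ran from 7 to 12 and the IGF axis from 9 to 14. In 4F against ES the IGF axis ran from 7 to 12 and the let-7 gene rows from 0 to 1. The deviations of same-numbered libraries correlated between -0.055 and 0.214 over the 6 pairs of groups, with the highest value for ES and MEF. Whether libraries of the same number were handled together was not tested. Apart from the count of 36 above, the replicate block ended the call of Igf2bp2 in 3F + IL6 against ES (0.23, limma adjusted p = 0.061) and changed no other call among the 8 genes.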
